A study of Mus musculus with 13 samples.

Results

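Shared intergenic peaks of the glucocorticoid receptor (GR, encoded by Nr3c1) are sites outside the annotated genes that were listed both in mouse embryonic fibroblasts in which a zinc finger of the receptor is mutated and in wild-type ones. They were chosen by the authors' deposited peak lists for Dex+LPS, as the peaks of the shared list placed upstream or downstream of their assigned gene and more than 1000 bp from its start. The rule took 1712 of the 3533 shared peaks (48.5%) and 6.94% of the 24673 peaks in the 3 Dex+LPS lists. Of the other shared peaks, 1557 lay inside genes, 121 overlapped a gene start, 14 overlapped a gene end, and 129 were upstream or downstream within the limit.

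All cells were fibroblasts of male C57BL/6 embryos at day 13.5, cultured for 7 days, and 1 antibody against the receptor was used throughout. Dex+LPS (the synthetic glucocorticoid dexamethasone, 1 µM over 16 h, with lipopolysaccharide, 100 ng/µl over 3 h; doses as labelled) was applied to 4 libraries of the mutant, labelled GR Zn/Zn, to 2 knockout libraries and to 3 wild-type libraries. Dex alone, at the same dose and time, was applied to 2 mutant and 2 wild-type libraries. The Dex+LPS lists were merged by genotype with knockout peaks removed, so they give no spread between replicates, whereas each Dex library has a list of its own. No list gives reads, heights or scores, so the depth is unknown and every peak counts alike. The labels do not say whether Dex libraries of a genotype are separate cultures, and p-values over them measure a spread that may be technical. Each of the Dex+LPS peaks was exactly 200 bp wide.

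GR is a nuclear receptor that enters the nucleus when a glucocorticoid binds it. It attaches to DNA as a dimer at a pair of inverted hexamers (the glucocorticoid response element), or to a single hexamer, and it can also be held at chromatin through factors such as AP-1 and NF-kB. Enhancers are regulatory sequences that can lie far from the gene they control, and many GR sites lie in such distal positions. A zinc finger of the DNA-binding domain is the module that reads the response element. The gene named beside a peak here is the one the authors' annotation assigned by position, which need not be the gene that the site regulates.

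The name intergenic held for most of the sites. In the RefSeq annotation of the same assembly (GRCm38), 1371 of the 1712 peaks (80.1%) lay outside every gene. The other 341 (19.9%) overlapped a RefSeq gene, in 218 cases a long non-coding RNA gene and in 95 cases a protein-coding gene (5.55% of the sites). The distance is counted from the gene start, and 63 peaks lay within 1000 bp of the nearer edge of their gene. The site nearest the limit was an upstream peak of Noct (a gene of the circadian system) at 1015 bp. Next were one of 4933430H16Rik at 1033 bp and one of the microRNA host gene Mir22hg at 1039 bp. Just under the limit were upstream peaks of Junb (994 bp), 9330111N05Rik (974 bp) and Fam107b (970 bp).

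Sequence could be read for the 18 sites that overlapped a RefSeq promoter window (from 250 bases before to 50 after a gene start), of which 5 lay in it whole. In all 18 cases the window belonged to another gene than the assigned one, and the 18 are not a sample of all sites. The letters searched on both strands were the GR element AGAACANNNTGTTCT with at most 2 mismatches in its 12 fixed bases, its hexamer AGAACA alone, and the AP-1 motif TGACTCA or TGAGTCA. A hexamer inside an element would count under both. Shown are all stretches of a site that held a match, and the site next to Cebpb, added because that gene is on a list. Capitals mark the hexamer (or TGTTCT, its reverse complement) in the first 3 and the AP-1 motif in the fourth, and all are given on the plus strand of GRCm38 (mm10) from RefSeq.
Peak 547 kb upstream of Jag1, chr2:137663207-137663406: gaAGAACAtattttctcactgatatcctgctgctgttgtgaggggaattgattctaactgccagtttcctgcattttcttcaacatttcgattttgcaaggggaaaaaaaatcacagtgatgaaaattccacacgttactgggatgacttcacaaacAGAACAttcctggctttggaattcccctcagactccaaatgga
Peak 10.01 kb upstream of Lmbr1, chr5:29388304-29388503: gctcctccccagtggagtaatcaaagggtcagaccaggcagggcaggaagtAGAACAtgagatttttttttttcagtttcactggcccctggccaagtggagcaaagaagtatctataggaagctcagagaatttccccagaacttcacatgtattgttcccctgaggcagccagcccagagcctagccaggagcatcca
Part of the peak 18.1 kb upstream of Ice1, chr13:70655787-70655867: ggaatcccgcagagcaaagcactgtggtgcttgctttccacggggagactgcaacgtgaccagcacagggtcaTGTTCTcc
Part of the peak 80.2 kb upstream of Zmiz1, chr14:25379027-25379091: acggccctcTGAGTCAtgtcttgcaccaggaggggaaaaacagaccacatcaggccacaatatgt
Part of the peak 1.64 kb downstream of the Cebpb start, chr2:167690509-167690649: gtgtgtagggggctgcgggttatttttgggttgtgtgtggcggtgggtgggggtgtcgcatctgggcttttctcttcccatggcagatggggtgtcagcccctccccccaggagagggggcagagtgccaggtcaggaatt

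Only the peak far upstream of Jag1, a Notch ligand, held the hexamer more than once. No stretch held the full element. The fewest mismatches to it were 3, in the Lmbr1 peak and in a peak 40.1 kb upstream of Foxe1. Over the whole 300-base windows, AP-1 motifs were in 5 of the 18 at shared intergenic peaks (27.8%, exact 95% interval 9.69 to 53.5%), in 0 of 6 at mutant-specific intergenic peaks, in 28 of 87 at wild-type-specific intergenic peaks (32.2%) and in 5 of 100 at shared peaks inside genes (5.00%), beside 5.20% of all 32851 windows. The hexamer was in 6 of the 18 (33.3%, interval 13.3 to 59.0%), 0 of 6, 28 of 87 (32.2%) and 11 of 100 in the same order, beside 19.0% of all windows. The full element was in 0 of 18 (interval up to 18.5%), 0 of 6, 5 of 87 (5.75%) and 0 of 100, beside 1.84% of all windows. These shares describe whole windows, which reach beyond the sites. Within the 18 stretches of the sites themselves, 1 held an AP-1 motif and 3 held the hexamer. The shares cover only the few sites with a sequence and were not tested.

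The shared intergenic sites were spread over 1237 genes, most of which had a single site. Of these genes, 939 had 1 site, 95 had 3 or more and the highest number was 12. Their distance from the gene start had quartiles of 20.02 and 150.3 kb and a median of 54.3 kb. At more than 100 kb lay 602 sites (35.2%) and within 5 kb 121 (7.07%). The mutant-specific intergenic peaks had a median of 50.2 kb and the wild-type-specific ones of 57.5 kb, and distance also served to choose all 3 sets, so no test was made. The site farthest from its gene was 2.08 Mb downstream of Olfm4, followed by 2 sites 2.02 Mb downstream of Immp2l, a mitochondrial inner membrane peptidase.

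Chromosomes 10 to 14 stood apart. They held 745 of the 1712 sites (43.5%) on 23.5% of the chromosome span, measured to the last annotated gene, and with 23.0% of the protein-coding genes. The density was 1.21 sites per Mb there, from 0.826 on chromosome 14 to 1.44 on chromosome 10, against 0.480 elsewhere, where it ranged from 0.0352 on the X chromosome to 0.673 on chromosome 8. The 2 ranges did not overlap, but the chromosomes were grouped with earlier results of these data known, so this is a description only. The same chromosomes held 55.2% of the mutant-specific intergenic peaks, 35.1% of the wild-type-specific ones and 31.4% of the shared peaks inside genes.

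**Figure D1:**
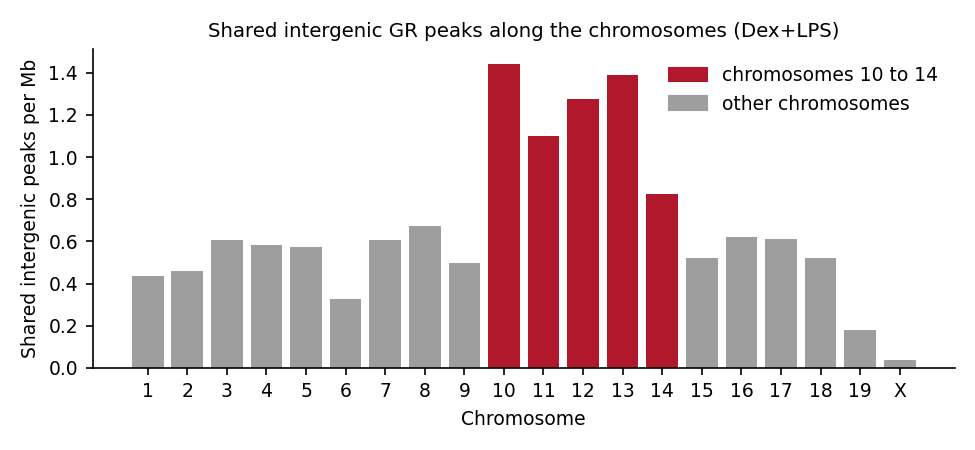
Shared intergenic peaks per Mb (y axis) on each chromosome (x axis), counted once over the merged Dex+LPS lists, with no error bar because there is 1 list. Chromosomes 10 to 14 (red) hold 0.826 to 1.44 sites per Mb, each above every other chromosome (grey, at most 0.673). The grouping was made with earlier results of these data known.

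Sites on chromosomes 10 to 14 had a longer median distance to genes than the rest. Their median distance was 89.2 kb, against 40.6 kb on the other chromosomes, and 47.1% of them lay beyond 100 kb, against 26.0%. Within 5 kb of a gene start were 3.62% and 9.72%. The other intergenic sets showed the same split, with medians of 80.6 and 29.6 kb for mutant-specific and of 78.9 and 49.4 kb for wild-type-specific peaks. Sites assigned to a gene of the lists made up 2.28% of the sites on chromosomes 10 to 14 (17 of 745) and 6.93% of those elsewhere (67 of 967). How many listed genes lie on each group of chromosomes is not set beside these shares, and some listed genes had several sites. The cause of the excess on these chromosomes was not tested.

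**Figure D2:**
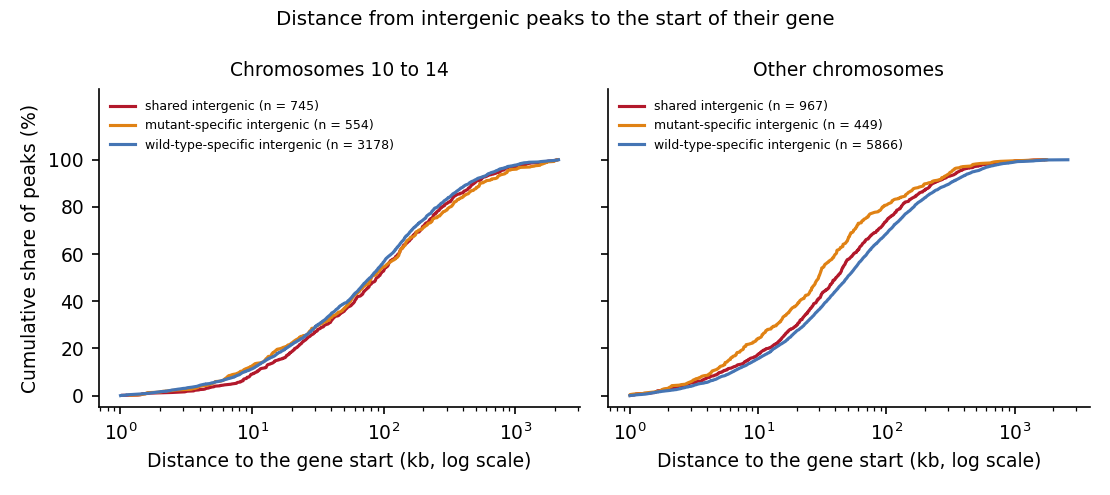
Cumulative share of peaks (y axis, %) by distance to the assigned gene start (x axis, kb, log scale) for shared, mutant-specific and wild-type-specific intergenic peaks, on chromosomes 10 to 14 (left) and the others (right). Curves start at the 1000 bp limit of the rule; the shared sites have medians of 89.2 kb on the left and 40.6 kb on the right.

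Many shared intergenic sites had a peak of another class close by, as did shared peaks inside genes. A mutant-specific peak had its centre within 5 kb of 175 sites (10.2%), a wild-type-specific peak within 5 kb of 664 (38.8%) and another shared peak within 5 kb of 310 (18.1%). The median distances were 227, 10.4 and 71.7 kb in the same order, and the lists differ greatly in length. For shared peaks inside genes the shares within 5 kb were 12.8%, 36.5% and 20.6% in that order. Of mutant-specific intergenic peaks, 33.2% had another mutant-specific, 35.4% a wild-type-specific and 17.0% a shared peak that close. Wild-type-specific intergenic peaks had lower shares than the sites, with 4.80% near a mutant-specific and 29.7% near another wild-type-specific peak. These differences were not tested. Both a mutant-specific and a wild-type-specific peak lay within 5 kb of 103 sites (6.02%), and 847 sites (49.5%) had no peak of any class that close. Among the genes with a site, 349 of 1237 (28.2%) also had a mutant-specific peak, 1009 (81.6%) a wild-type-specific peak, and 207 (16.7%) neither. The matching shares over all genes were not counted, so these do not set the genes apart. For intergenic peaks alone, a narrower count, 2.50% of all protein-coding genes had a mutant-specific and 16.1% a wild-type-specific peak. On chromosomes 10 to 14, 14.6% of the sites had a mutant-specific, 46.4% a wild-type-specific and 24.6% another shared peak within 5 kb, against 6.83%, 32.9% and 13.1% on the other chromosomes. These values come from the same lists as the rule and are a description.

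**Figure D3:**
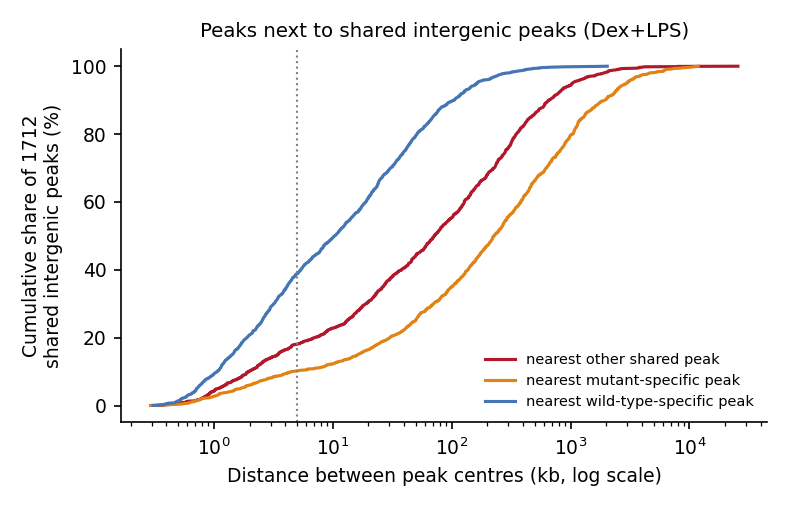
Cumulative share of the 1712 shared intergenic peaks (y axis, %) by the distance between peak centres (x axis, kb, log scale) to the nearest other shared, mutant-specific and wild-type-specific peak. At 5 kb (dotted line) the curves stand at 18.1%, 10.2% and 38.8%.

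Sites also followed each other in runs, in which the widest step from one start to the next was 12.08 kb. There were 164 runs of 2 or more, holding 362 sites (21.1%), and 20 runs of 3 or more. The longest held 12 sites in 37.4 kb upstream of Zfp709, a zinc finger protein gene on chromosome 8 (71822172 to 71859616), mixed with 3 mutant-specific and 13 wild-type-specific peaks. A run of 7 sites in 9.62 kb lay upstream of Spdl1, which encodes a protein of the mitotic spindle checkpoint (chromosome 11, 34845760 to 34855374), and held no genotype-specific peak. A run of 4 sites in 18.6 kb lay beyond the end of Fbn1, the gene of the matrix protein fibrillin-1, with 2 of its sites assigned to Dut (chromosome 2, 125274128 to 125292772). Runs of 3 sites lay just beyond the end of Fstl1 and far from the start of Lncpint (a long non-coding RNA), within 3.09 and 3.11 kb. No site of these 5 runs was overlapped by a wild-type Dex peak. Of all sites, only 4.38% were overlapped by a peak of either wild-type Dex library. The lack of overlap therefore does not set these runs apart.

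After Zfp709 with 12 and Spdl1 with 9 sites, Irf2bp2, a transcriptional corepressor, had 8, of which 7 lay upstream, between 10.04 and 119.7 kb. Klf6, a zinc finger transcription factor, had 6 sites, all downstream, from 21.5 kb to 332 kb of its start, and no mutant-specific peak. Btg1, an antiproliferative gene, had 5 sites between 11.5 and 109 kb. The neighbouring sites downstream of Btg1, at 11.5 and 16.0 kb, were 7.75 and 12.3 kb from the nearest mutant-specific peak and 6.78 and 11.3 kb from the nearest wild-type-specific one. Marcks, a substrate of protein kinase C, had 5 sites, all upstream, of which one lay at 6.87 kb and the others beyond 195 kb. Immp2l (8 sites, 1221 to 2018 kb), Nova1 (6 sites, 253 to 1043 kb) and Flrt2 (6 sites, 111 to 1071 kb) lie on chromosome 12 and had their sites at great distance. In all, 10 genes had 6 or more sites, among them also 1700001F09Rik (8), Spanxn4 (7) and Tnc (7). A further 9 genes had 5 each, which besides Btg1 and Marcks were 1700016G22Rik, 4933402J15Rik, Akr1e1, Fstl1, Gm20125, Gm20139 and Prl2c2.

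Most gene lists, housekeeping genes among them, had such sites in larger shares than protein-coding genes as a whole. The shares were largest for genes of inflammation and of the extracellular matrix. Of 21900 protein-coding genes in the RefSeq table, 995 (4.54%) had at least 1 shared intergenic site. In the inflammation list it was 16 of 42 genes (38.1%), in the matrix and fibroblast list 13 of 41 (31.7%), in the list of known GR targets 10 of 40 (25%) and in the AP-1 family 3 of 12 (25%). Housekeeping genes had a site in 3 of 18 cases (16.7%), adipogenesis genes in 2 of 16, clock genes in 2 of 18 (11.1%) and interferon response genes in 1 of 22 (4.55%). The other intergenic peaks also reached the inflammation and matrix lists in larger shares than all protein-coding genes. Mutant-specific ones were at 19.0% of inflammation, 17.1% of matrix and 54.5% of interferon genes (2.50% of all protein-coding genes), and wild-type-specific ones at 52.4%, 70.7% and 13.6% (16.1% of all). The wild-type-specific share of interferon genes rests on 3 of 22 genes and was near that of all protein-coding genes. No marker of macrophages, endothelium, muscle or neurons had a site (0 of 5, 4, 4 and 4 genes), but peak positions hold no expression and do not check the cell type. The lists were chosen with earlier results of these data known, and gene length and the size of the gaps between genes were not matched, so these counts carry no test.

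**Figure D4:**
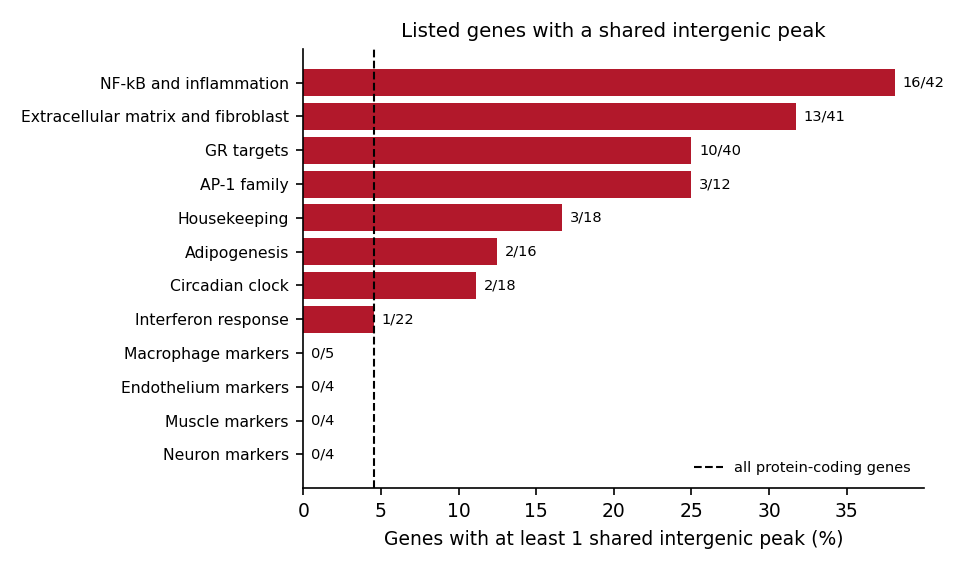
Share of the genes of each list with at least 1 shared intergenic peak (x axis, %), with the number of genes over the genes found in the RefSeq table beside each bar. The dashed line marks all protein-coding genes (4.54%); the inflammation list reaches 38.1% and the 4 marker lists are at 0.

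Among the genes of the inflammation list, Csf1, which drives macrophage growth, had the most sites. Its 4 sites lay at 15.7, 33.2 and 36.2 kb upstream and 27.0 kb from the start on the other side, past the end of the gene (chromosome 3, 107733372 to 107733571). This downstream site had a mutant-specific peak at 0.932 kb and a wild-type-specific peak at 0.771 kb. Il6, the gene of interleukin-6, had 1 site 7.61 kb from its start (chromosome 5, 30020625 to 30020824), with a mutant-specific peak at 1.11 kb and a wild-type-specific peak at 5.85 kb. Lif, a cytokine of the same family, had 1 site at 42.2 kb, with the nearest mutant-specific peak at 887 kb and the nearest wild-type-specific peak at 2.87 kb. Il1a, the gene of interleukin-1 alpha, had 1 site 21.0 kb upstream. The chemokine genes Ccl20, Cxcl5 and Cxcl1 had 2, 2 and 1 sites, all upstream, and each of the 5 had a wild-type-specific peak within 3.45 kb.

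Regulators of inflammatory signalling carried several sites. Nfkbiz, a nuclear regulator of NF-kB, had 3 sites at 30.9, 84.1 and 107 kb. Socs3, an inhibitor of cytokine receptor signalling, had 3 sites at 3.93, 19.4 and 22.7 kb, and the nearest of them had a mutant-specific peak at 1.03 kb. Among enzymes and surface proteins, Ptgs2 (cyclooxygenase-2) had a site at 30.9 kb, Nos2 (nitric oxide synthase) sites at 31.4 and 33.6 kb, the adhesion molecule Vcam1 at 8.58 and 60.0 kb and the receptor Tlr2 at 21.5 kb. The remaining sites of the list lay at Mmp3, Tnfaip2 and Traf1, between 11.0 and 22.7 kb. Of the 27 sites in the list, 3 (11.1%) had a mutant-specific and 15 (55.6%) a wild-type-specific peak within 5 kb. Over all 1712 sites these shares were 10.2% and 38.8%, so the mutant-specific share was near that of all sites. The differences were not tested.

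Among matrix genes, Tnc, which encodes tenascin-C, had 7 sites. Those past its end, at 87.9, 88.4 and 91.1 kb from the start, lay within 1.85 kb of mutant-specific peaks and within 1.85 kb of wild-type-specific peaks. Its 4 upstream sites, at 29.6, 31.3, 37.0 and 95.5 kb, were at least 43.5 kb from the nearest mutant-specific peak. Fstl1, a secreted glycoprotein, had 5 sites between 44.6 and 62.8 kb, and Thbs2, a matricellular protein, 4 between 24.8 and 83.2 kb. The collagen genes Col1a1, Col1a2 and Col3a1 had 1, 2 and 2 sites, the nearest 2.46 kb upstream of Col1a1. Postn and Fbn1 had 2 sites each, and Bgn, Dcn, Lox, Mmp2 and Thy1 had 1.

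Known GR targets had at most 2 sites each. Errfi1, which restrains signalling of the EGF receptor, had 2, at 20.02 and 20.9 kb, within 2.60 kb of mutant-specific and within 1.50 kb of wild-type-specific peaks. Fkbp5, a chaperone of the receptor, had 1 site, past its end and 123 kb from its start (chromosome 17, 28394245 to 28394444), 13.4 kb from the nearest wild-type-specific peak. Cdkn1a, an inhibitor of the cell cycle, had 1 site 11.4 kb from its start (chromosome 17, 29102320 to 29102519), with a mutant-specific peak 1.67 kb away and the nearest wild-type-specific peak at 23.3 kb. The NF-kB inhibitors Nfkbia and Tnfaip3 are counted in this list. Nfkbia had sites at 26.2 and 27.6 kb downstream of its start, and Tnfaip3 had 1 at 30.8 kb upstream, 11.2 kb from the nearest mutant-specific and 32.0 kb from the nearest wild-type-specific peak. Angptl4, an inhibitor of lipoprotein lipase, had a site 1.96 kb upstream, Sgk1 (a kinase of ion transport) one 48.2 kb upstream and Plin2 (a lipid droplet coat protein) one 20.4 kb upstream. Cebpb, a transcription factor of fat and immune cells, had the site at 1.64 kb whose sequence is given above. Nr3c1 itself had 2 sites, 92.5 and 128 kb upstream; positions give no level of the receptor and do not check the genotype labels. Of the AP-1 genes, Fos, Jun and Batf had 1 site each, at 12.9, 53.6 and 20.01 kb. The clock repressor Bhlhe40 had 3 sites at 7.86, 27.8 and 49.1 kb, and Nfil3, another repressor of clock genes, had 1 at 52.7 kb. In the adipogenesis list, Klf4 had 3 sites upstream, at 119, 199.8 and 495 kb. The only interferon response gene with a site was Ifih1, a sensor of viral RNA, 58.4 kb from its start and 0.780 kb from a mutant-specific peak.

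The Dex libraries were not used to choose the sites, so they allow a test of whether the sites recurred without LPS. In mutant Dex libraries 0 and 0 of the 1712 sites were overlapped by a peak, by at least 1 bp, against 21 and 58 in wild-type Dex libraries. The shares were 0% in both mutant libraries, against 1.23% and 3.39% in the wild-type libraries (means 0 ± 0 and 2.31 ± 1.53%, SD, n = 2 each). Both wild-type libraries lay above both mutant libraries, and the difference of -2.31 percentage points gave an exact permutation p of 0.333 (two-sided), the smallest that 2 against 2 libraries allow. The share of all 24673 Dex+LPS peaks overlapped was 0% and 0.00811% in the mutant libraries and 0.426% and 0.843% in the wild-type libraries. Off chromosomes 10 to 14 the wild-type libraries overlapped 2 and 1 of 967 sites, and the difference was -0.155 points. The mutant lists were short. Their 0 of 53 and 0 of 60 peaks on a site allow shares of up to 5.66% and 5.00% of each list (3 counts, counting error only), beside 5.10% (21 of 412) and 6.56% (56 of 854) in the wild-type lists. The smaller wild-type share lay between these limits of the mutant lists, and the larger lay above them. On chromosomes 10 to 14 the wild-type shares were 6.76% and 8.72%, beside mutant limits of 21.4% and 15.8%. Off these chromosomes they were 1.53% and 0.448%, beside mutant limits of 7.69% and 7.32%. In each part the wild-type shares thus lay below the mutant limits, and mutant lists of this length cannot tell the genotypes apart by this share.

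The sites recurred in the wild-type Dex libraries more often than wild-type-specific intergenic peaks and shared peaks inside genes. This rested on chromosomes 10 to 14, which also held most of the wild-type Dex peaks themselves. These chromosomes held 281 of 412 and 631 of 854 wild-type Dex peaks, beside 14 of 53 and 19 of 60 mutant Dex peaks. Elsewhere only 131 and 223 wild-type Dex peaks could overlap a site. In either wild-type Dex library 75 sites (4.38%, interval 3.46 to 5.46%) were overlapped, beside 1.16% of all Dex+LPS peaks. The share was 4.95 times that of wild-type-specific intergenic peaks (80 of 9044, 0.885%; Fisher's exact test, two-sided, adjusted p = 9.02e-21 over 5 tests). It was 1.89 times that of shared peaks inside genes (36 of 1557, 2.31%; Fisher's exact test, adjusted p = 0.00220). Against mutant-specific intergenic peaks (37 of 1003, 3.69%) the difference was 0.692 percentage points, with an interval of -0.919 to 2.16 (Fisher's exact test, adjusted p = 0.530). Without wild-type Dex library 2, the difference from wild-type-specific peaks was 0.851 percentage points, and that from shared peaks inside genes was 0.584 with its call lost (Fisher's exact test, adjusted p = 0.173). Without library 1 they were 2.79 and 1.65 points. These tests compare lists of peaks and not samples, and neighbouring peaks are not independent.

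On chromosomes 10 to 14, 72 of 745 sites (9.66%) were overlapped, against 5.60% of mutant-specific intergenic, 2.11% of wild-type-specific intergenic and 5.52% of shared peaks inside genes (Fisher's exact test, adjusted p = 0.0164, 3.85e-18 and 0.0164). On all other chromosomes it was 3 of 967 sites (0.310%, interval 0.0640 to 0.904%), against 1.34%, 0.222% and 0.843% (Fisher's exact test, adjusted p = 0.0820, 0.486 and 0.251). There the difference from wild-type-specific peaks was 0.0886 percentage points (interval -0.169 to 0.694), and the sites stood below mutant-specific and inside peaks in place of above them. The odds ratios differed between these chromosomes and the others. The adjusted p was 0.0125, 0.0361 and 0.0213 in the same order (likelihood ratio chi-square test of a binomial logistic model over peak counts). The test is approximate because so few sites were overlapped off chromosomes 10 to 14. These chromosomes were set apart with earlier results of these data known, so the p-values of this split do not test an independent choice.

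**Figure D5:**
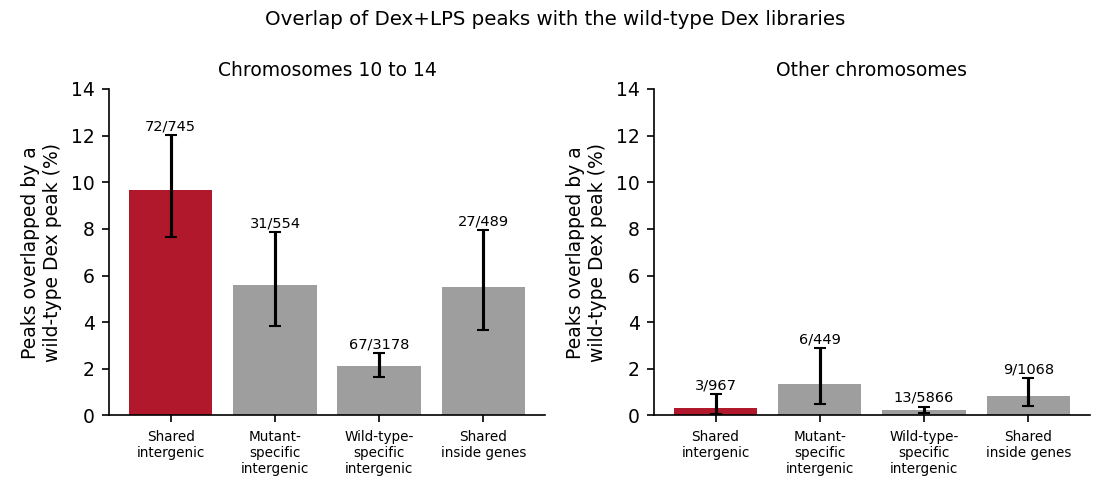
Share of Dex+LPS peaks overlapped by at least 1 peak of the 2 wild-type Dex libraries (y axis, %) for shared intergenic peaks (red) and 3 other sets (grey), on chromosomes 10 to 14 (left) and the other chromosomes (right). Error bars are exact 95% binomial intervals for counting error only; the sites stand at 9.66% on the left and 0.310% on the right.

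Few recurring sites came back in both libraries. The 75 sites were assigned to 69 genes, with a median distance of 139.9 kb and 44 of them (58.7%) beyond 100 kb. The 72 on chromosomes 10 to 14 had a median of 145.8 kb, with 61.1% beyond 100 kb, beside 89.2 kb and 47.1% for all 745 sites there, a difference that was not tested. Only 4 sites (0.234%) were overlapped in both wild-type libraries. They lay 514 kb downstream of Epm2a (a phosphatase of glycogen metabolism), 456 kb upstream of Atxn7l3b, 238 kb downstream of Twistnb and 87.6 kb upstream of Fam240b, on chromosomes 10, 10, 12 and 13. The 3 sites off chromosomes 10 to 14 were the one at Cdkn1a, in library 2, and those 83.3 kb upstream of Ctnnd2 and 23.5 kb downstream of the Fam220a start, in library 1. The site at Cdkn1a was the only site at a gene of the lists that a Dex peak overlapped. Of the sites at listed genes, 67 lay off chromosomes 10 to 14, where 0.310% of all sites were overlapped. The other 17 lay on these chromosomes, where 9.66% were. So few overlaps do not set the listed genes apart. Of the wild-type Dex peaks on a site, 5 of 21 in library 1 (23.8%, interval 8.22 to 47.2%) and 4 of 56 in library 2 (7.14%, interval 1.98 to 17.3%) overlapped a peak of the other library. For peaks elsewhere on chromosomes 10 to 14 the shares were 38.2% and 17.4%, and off these chromosomes 61.2% and 35.1%. The differences between these shares were not tested.

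Placement upstream or downstream of the gene is a value the choice of sites rests on, and the 1000 bp limit took away mostly upstream peaks, so it is described without a test. The shared list held 985 upstream and 856 downstream peaks, and the sites kept from it were 861 upstream (50.3%) and 851 downstream. On chromosomes 10 to 14, 46.2% of the sites were upstream, beside 42.4% of mutant-specific and 48.5% of wild-type-specific intergenic peaks. On the other chromosomes the shares were 53.5%, 41.4% and 52.0% in the same order.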

How the data were processed

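GR ChIP-seq peaks were analysed from 3 merged Dex+LPS lists and 4 lists of Dex libraries; 9 Dex+LPS libraries stand behind the merged lists. The deposited values are peak positions and distances in base pairs, with no other measurement. Per the submitters' processing notes the build was mm10 and the tools included MACS2 2.1.0, Picard 1.119 and BWA 0.7.13, with no step named for each. The way lists were merged, controlled and annotated was not found in those sources. Per the file names, knockout peaks were removed. The depth of each list is unknown.

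Overlap was counted from 1 bp, and checked against bedtools 2.31.1 on 500 simulated intervals. Shares have exact (Clopper-Pearson) 95% intervals and differences Newcombe intervals; floors are 3 counts. Both cover counting error only. Fisher's exact test (two-sided) served to compare sets of peaks, with Benjamini-Hochberg adjustment over 5 tests, at a threshold of 0.05 (2 of them, on upstream placement, are given as shares only because the rule used that value), and Dex libraries by an exact permutation test. Of the 1712 gene identifiers, 1711 matched RefSeq (GRCm38). Promoter sequences of opposite strands were checked at 1704 overlapping pairs. The sites, the 12 gene lists and the tests were chosen with earlier results of these data known. Named regions were the longest runs, the extremes of distance and sites found in both wild-type Dex libraries, since the rule's sites in all 4 libraries numbered 0; named genes were the 15 with most sites (ties by symbol; the other genes tied at 5 sites were added) and listed genes with 3 or more sites or a Dex peak. Further genes of the lists, the genes next to the printed sequences and the other sites off chromosomes 10 to 14 were named after their values were seen, and the printed sequences were limited to RefSeq windows. Python 3.11.15, numpy 2.4.6, pandas 2.3.3, scipy 1.17.1, statsmodels 0.14.6 and matplotlib 3.10.9 were used.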

Additional observations from a re-analysis of the deposited data

How the results depend on the processing

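For the 3 differences in overlap with wild-type Dex peaks, 24 of 30 alternative values kept their direction and their side of the threshold. Values are differences in percentage points, sites minus the other set. Without chromosomes 10 to 14, the difference in overlap with wild-type Dex peaks was 0.0886 from wild-type-specific intergenic peaks (call lost). It turned to -1.03 from mutant-specific intergenic and -0.532 from shared inside peaks. The difference in upstream share, a description only, was -0.449 against wild-type-specific peaks over all chromosomes and turned to 1.49 here. With chromosomes 10 to 14 alone, a choice made after seeing the data, the overlap difference from mutant-specific peaks was 4.07 and passed the threshold. The upstream difference from mutant-specific peaks, again a description only, fell to 3.76 there from 8.32 over all chromosomes. Centres within 500 bp turned the overlap difference from mutant-specific peaks to -0.711. The upstream difference from wild-type-specific peaks turned to 0.670 at distances above 5000 bp and to 0.270 with the gene edge also beyond 1000 bp, the second chosen after seeing the data. The cause of these changes was not tested. Leaving out one wild-type Dex library gave 0.584 to 1.65 against shared inside peaks, with the call lost without library 2, and 0.851 to 2.79 against wild-type-specific intergenic peaks. Mutant minus wild-type Dex overlap was -3.39 to -1.23 with one library left out, where no test was run, and with all libraries its p cannot pass the threshold. With the replicate number as a block (paired, replicate block) it was -2.31 (exact sign-flip p = 0.5, the smallest possible); with 0 in both mutant libraries, whether the numbers pair the samples could not be checked. Requiring 100 bp of overlap, sites outside every RefSeq gene, or 1 peak per run changed no call. Motif tests across all peaks were not run because no genome was used here. Depth, which is unknown, limits all values.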

Other observations

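Of the 1712 shared intergenic sites, 1359 (79.4%) were assigned to protein-coding genes, 295 (17.2%) to long non-coding RNA genes and 33 (1.93%) to microRNA genes. The MAP kinase phosphatase Dusp6 had 4 sites, at 15.3, 21.0 and 25.9 kb upstream and at 34.8 kb on the other side; it had no mutant-specific peak, and 9 wild-type-specific ones. Sites at Flrt2 combined great distance with close neighbours: the 3 farthest upstream (438 to 1071 kb) each had a mutant-specific peak within 2.50 kb and a wild-type-specific peak within 1.62 kb, and wild-type Dex library 2 overlapped 2 of its 6 sites. These genes were chosen after their values were seen.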
